A study of Rattus norvegicus with 12 samples.

Results

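The neuronal microRNAs (miRNAs) miR-124 and miR-128 were represented by 5 of the 685 miRNA names in the tables, which carry the rat prefix rno: rno-miR-124-3p, rno-miR-124-5p, rno-miR-128-3p, rno-miR-128-1-5p and rno-miR-128-2-5p. The prefix is left out below. They were taken as every name of either miRNA, with any locus and arm suffix. The rule used no measured value, but the pair of miRNAs was chosen with earlier results of these data known. Small RNA had been sequenced from cortical neurons of Sprague Dawley rat embryos at day 17, transduced with lentivirus at 10 days in vitro and lysed at 14 days in vitro. Every group received an shRNA virus, and none was left untransduced. There were 4 libraries with an shRNA against Stau2 (shStau2), 4 with an shRNA against Pum2 (shPum2) and 4 with a non-targeting shRNA (shNTC). Stau2 encodes Staufen2, which binds double-stranded RNA, and Pum2 encodes the mRNA-binding protein Pumilio 2. According to the series design, shPum2 controlled for changes that an shRNA brings by itself. The mRNAs of Stau2 and Pum2 were not analysed here, so the depth of either knockdown is not part of these values.

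A miRNA hairpin is cut into a 5p and a 3p strand. Argonaute usually keeps a preferred strand, the guide, and the other is degraded; bases 2 to 8 of the guide, the seed, pair with target mRNAs. miR-124 is largely restricted to neurons, where it represses mRNAs of other cell types and of the progenitor state, among them those of the splicing regulator Ptbp1 and of components of the REST repressor complex. miR-128 is enriched in brain, rises as neurons mature, and limits neuronal excitability and migration. The guide of each is the 3p strand.

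Both miRNAs have several loci. The RefSeq table of assembly GRCr8 names Mir124-1, Mir124-2 and Mir124-3, and places Mir124-1 and Mir124-2 within long non-coding RNA genes. It places Mir128-1 within R3hdm1 and Mir128-2 within Arpp21, both protein-coding. Mir128-2 also lies within a long non-coding RNA gene, LOC120094269. The hairpin Mir128-1 lies at chr13:42251884-42251965 on the plus strand and Mir128-2 at chr8:120963795-120963878 on the minus strand of GRCr8. They are shown because the counts of the shared 3p strand cannot be divided between the loci, whereas the 5p strands name their locus. Capitals mark the mature 5p and 3p strands, both sequences being from RefSeq.
Mir128-1: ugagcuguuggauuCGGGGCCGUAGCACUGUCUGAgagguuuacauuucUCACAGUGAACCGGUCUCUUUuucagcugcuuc
Mir128-2: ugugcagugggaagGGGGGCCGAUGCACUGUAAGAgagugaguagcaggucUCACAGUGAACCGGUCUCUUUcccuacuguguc

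The 3 mature strands of miR-128 are given next with the seed in capitals, each 21 bases long.
miR-128-3p: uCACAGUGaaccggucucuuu
miR-128-1-5p: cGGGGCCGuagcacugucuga
miR-128-2-5p: gGGGGCCGaugcacuguaaga
The 5p strands had the same seed and were identical at 16 of 21 positions, and whether reads were exchanged between them in counting was not tested. No other mature rat miRNA in the RefSeq table had the seed of a miR-128 strand. miR-27a-3p, miR-27b-3p and miR-216a-3p held bases 2 to 7 of miR-128-3p at a position shifted by 1 base. These bases are in capitals in the following sequences, from the same table.
miR-27a-3p: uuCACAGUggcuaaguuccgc
miR-27b-3p: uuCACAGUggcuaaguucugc
miR-216a-3p: CACAGUggucucugggauuaug

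The libraries held 3836349 to 5415763 counts, of which 99.01 to 99.32% fell on miRNA names. Levels are given in CPM, the count of a miRNA relative to its library's total, scaled by the trimmed mean of M-values (TMM). They are relative to the miRNA pool and not amounts per cell. The TMM factors ran from 0.9091 to 1.072, so scaled CPM differ somewhat from plain shares of the counts. In such bulk samples, fewer neurons and less of a miRNA per neuron cannot be told apart. Neuronal markers were abundant, above all miR-128-3p. The 8 neuronal miRNAs summed to 115600 to 129000 CPM in shStau2, 106900 to 129900 in shPum2 and 109400 to 126900 in shNTC. Most of this was miR-128-3p itself (mean 91251 CPM over the 12 libraries), and miR-124-3p was also in the list (5099 CPM). The highest of the other neuronal markers was miR-137-3p (10138 CPM). No sum without miR-124-3p and miR-128-3p was made. The sums of the other marker lists were far lower. The lists differ in length and in their miRNAs, so the sums do not rank cell types. The 4 markers of astrocytes or dividing cells summed to 4668 to 6125 CPM in shStau2, 5486 to 7574 in shPum2 and 6799 to 9532 in shNTC. Oligodendrocyte markers reached at most 408.3 CPM in a library, microglia or blood markers 397.5 and vessel or mesenchyme markers 1103. None of the marker names in the tables was at 0 throughout.

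The guide strands were abundant and their partners rare. miR-128-3p had rank 3 among the 628 miRNAs tested, in the mean (91251 CPM) and in each of the 12 libraries. It stood between miR-125b-5p (132810 CPM), the mammalian relative of worm lin-4, and let-7c-5p (74955 CPM). Its share of all miRNA counts ran from 8.22 to 10.4% across libraries. miR-124-3p ranked 27th at 5099 CPM, between miR-99a-5p (5148 CPM) and miR-382-5p (4729 CPM), with a share of 0.435 to 0.578%. The ranges of these 3 over the libraries overlapped, so the ranks between them are not firm. The partner miR-124-5p ranked 190th at 153.6 CPM, miR-128-1-5p 382nd at 18.3 CPM and miR-128-2-5p 492nd at 6.36 CPM. No correction was made for differences in capture between sequences.

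**Figure D1:**
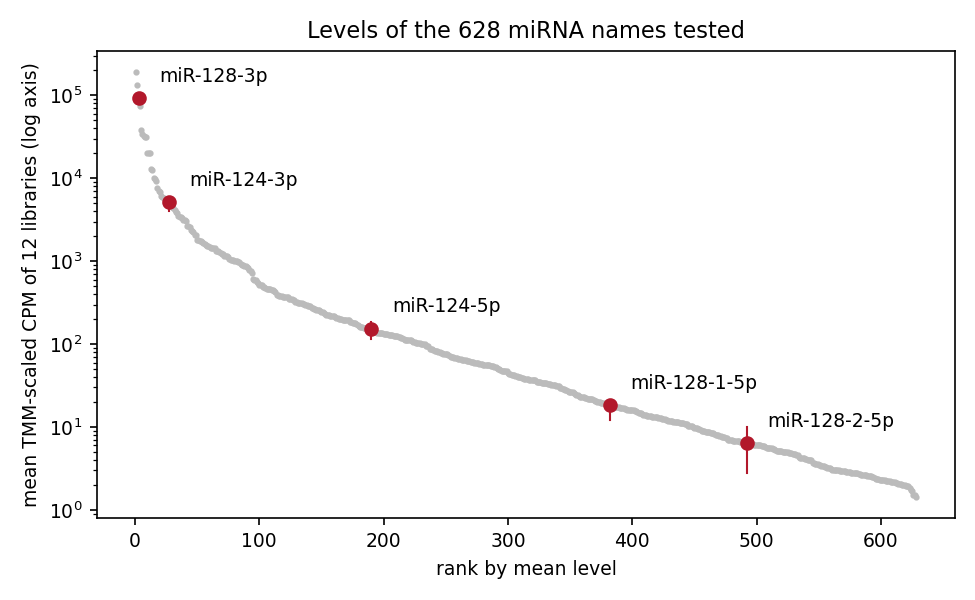
Mean TMM-scaled CPM over the 12 libraries (log axis) against the rank of each of the 628 miRNAs tested (grey points). Red points are the miR-124 and miR-128 strands, with bars from the lowest to the highest library; miR-128-3p has rank 3 and miR-124-3p rank 27, and the 5p strands lie between rank 190 and rank 492.

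Per library, miR-124-3p stood at 5647, 4917, 5639.5 and 5628 CPM in shStau2 replicates 1 to 4. It stood at 4779.6, 5225, 5123 and 4788 CPM in shPum2 and at 4856, 4063, 4929 and 5599 CPM in shNTC. In TMM-scaled CPM, 3 of the shStau2 libraries lay above every shPum2 and shNTC library, and replicate 2 lay within both groups. As shares of miRNA counts this separation was absent. The shares were 0.563, 0.498, 0.513 and 0.547% in shStau2 replicates 1 to 4, and the highest of all was shNTC replicate 4 at 0.578%. The means were 5458 ± 361 CPM in shStau2, 4979 ± 229 in shPum2 and 4862 ± 629 in shNTC (SD, n = 4 each). Against shNTC, miR-124-3p in shStau2 had a log2 fold change of 0.17 (SE 0.091, 95% interval -0.026 to 0.36), which did not pass edgeR's quasi-likelihood test (Benjamini-Hochberg adjusted p = 0.509). Pairs of the same replicate number were compared in TMM-scaled CPM, and miR-124-3p was higher in shStau2 in 4 of 4. In number 4 this was only by 5628 against 5599 CPM, and as a share of miRNA counts shStau2 was lower there (0.547 against 0.578%). With the replicate number as a block the log2 fold change was 0.17 (SE 0.076, interval 0.012 to 0.33), and it again missed the threshold (edgeR adjusted p = 0.195). Without scaling factors and without the block it was 0.105 (edgeR adjusted p = 0.711).

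The other comparisons of miR-124-3p were smaller still. In shPum2 against shNTC the log2 fold change was 0.034 (interval -0.16 to 0.23, adjusted p = 0.982), with 2 of 4 pairs higher. In shStau2 against shPum2 it was 0.13 (interval -0.061 to 0.33, adjusted p = 0.657), with 3 of 4 pairs higher. Without the block, the interval leaves room for a level in shStau2 between 0.982 and 1.28 times that in shNTC. With the block that interval, 0.012 to 0.33 on the log2 scale, lay above no change (edgeR adjusted p = 0.195). The order of the means was therefore shStau2, shPum2, shNTC, with no pair of neighbours differing beyond its spread.

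miR-124-5p, the strand that is mostly degraded, stood at 147.5, 182.3, 169.6 and 152.8 CPM in shStau2 replicates 1 to 4. The values were 140.1, 161.8, 164.7 and 113.9 CPM in shPum2, and 163.0, 131.8, 151.3 and 163.9 CPM in shNTC. All groups overlapped, and the lowest library was shPum2 replicate 4. Counts were 527 to 827 per library, and for that lowest library the 95% binomial (Clopper-Pearson) interval was 109.6 to 130.3 CPM before scaling. The log2 fold change was 0.097 (interval -0.18 to 0.37, adjusted p = 0.856) in shStau2 against shNTC, -0.072 (-0.35 to 0.21, adjusted p = 0.982) in shPum2 against shNTC, and 0.17 (-0.11 to 0.45, adjusted p = 0.672) in shStau2 against shPum2, all by edgeR. In TMM-scaled CPM the strand was higher in shStau2 than in shPum2 in 4 of 4 pairs, and than in shNTC in 2 of 4. As a share of miRNA counts it was lower in shStau2 than in shPum2 in number 3 (0.01542 against 0.01558%).

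miR-128-3p, the guide shared by both miR-128 loci, stood at 87691, 98267, 99884 and 94535 CPM in shStau2 replicates 1 to 4. In shPum2 it stood at 79156, 102053, 95586 and 83043 CPM, and in shNTC at 86382.5, 82286, 99215 and 86918 CPM. The groups overlapped throughout: the highest and the lowest of the 12 values were both in shPum2. Mean levels were 95094 ± 5420 CPM in shStau2, 89959 ± 10680 in shPum2 and 88700 ± 7309 in shNTC (SD, n = 4 each), the same order as for miR-124-3p and again with no firm step. Against shNTC the log2 fold change in shStau2 was 0.10 (SE 0.086, interval -0.083 to 0.28, edgeR adjusted p = 0.736), with 4 of 4 pairs higher in TMM-scaled CPM. As shares of miRNA counts, shStau2 was lower in number 1 (8.747 against 8.755%) and number 3 (9.08 against 9.411%). It was higher in number 2 (9.957 against 8.817%) and number 4 (9.195 against 8.977%). With the block the log2 fold change was 0.10 (SE 0.063, adjusted p = 0.375). Without scaling factors it was 0.040, and without shNTC replicate 3 it was 0.155 (adjusted p = 0.856 and 0.614). It was 0.020 (interval -0.16 to 0.20, adjusted p = 0.982) in shPum2 against shNTC, and 0.080 (-0.10 to 0.26, adjusted p = 0.791) in shStau2 against shPum2. The interval for shStau2 against shNTC ran from 0.944 to 1.22 times, narrower than for any other strand.

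**Figure D2:**
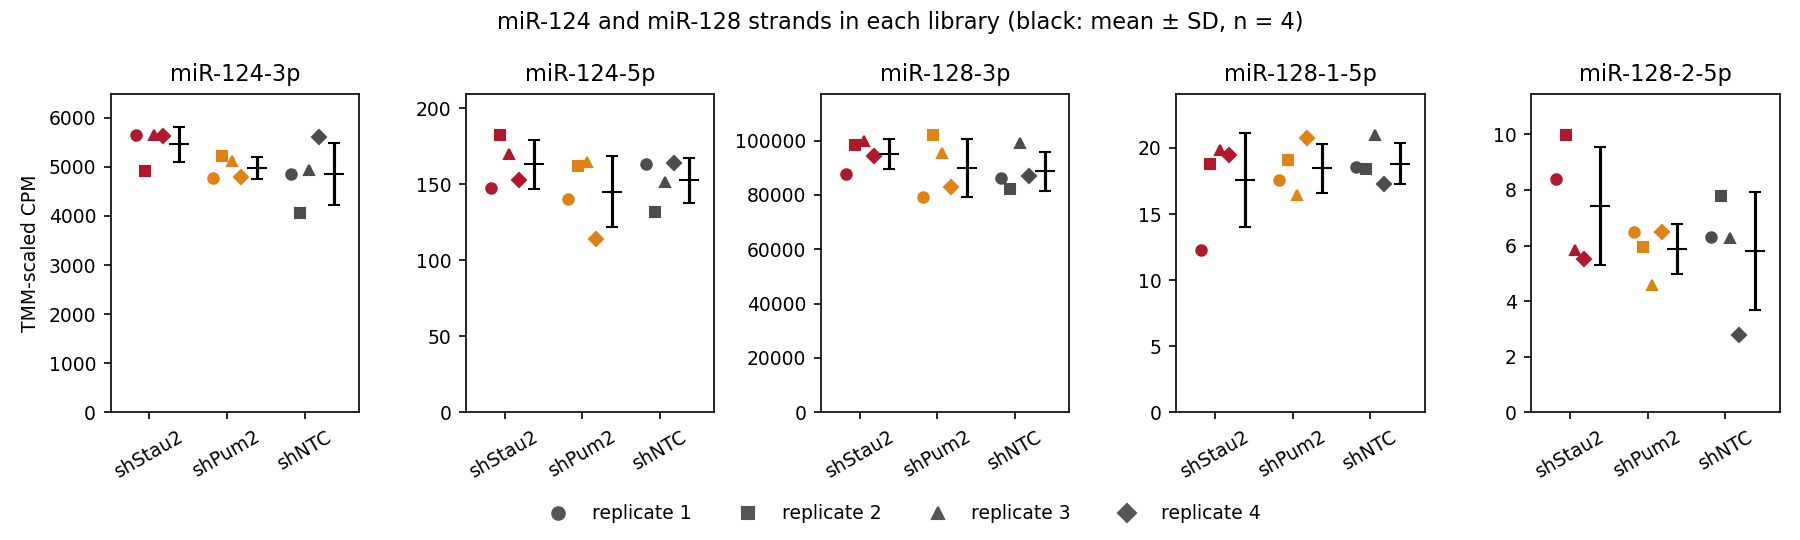
TMM-scaled CPM (linear axes from 0, a scale for each panel) of the 5 strands in the 12 libraries, by group, with a symbol for each replicate number and the mean ± SD of 4 libraries in black. With TMM scaling, 3 of the 4 shStau2 points of miR-124-3p lie above all others, which does not hold for shares of miRNA counts. The groups overlap in every panel.

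The 5p strands of miR-128 were counted only 11 to 107 times per library, so their values are coarse. miR-128-1-5p, from the R3hdm1 locus, had 54, 81, 92 and 81 counts in shStau2 replicates 1 to 4, or 12.3, 18.8, 19.9 and 19.4 CPM. It had 76, 77, 79 and 96 counts in shPum2 and 94, 85, 107 and 68 in shNTC. shStau2 replicate 1 was the lowest of the 12 libraries at 12.3 CPM, and the other 11 lay between 16.4 and 20.97 CPM. The log2 fold change was -0.099 (interval -0.44 to 0.24, edgeR adjusted p = 0.898) in shStau2 against shNTC, -0.030 (-0.37 to 0.31, adjusted p = 0.982) in shPum2 against shNTC and -0.069 (-0.41 to 0.27, adjusted p = 0.909) in shStau2 against shPum2. Without shStau2 replicate 1 the values of shStau2 turned to 0.038 against shNTC and 0.068 against shPum2.

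miR-128-2-5p, from the Arpp21 locus, had 37, 43, 27 and 23 counts in shStau2, 28, 24, 22 and 30 in shPum2, and 32, 36, 32 and 11 in shNTC, each in replicates 1 to 4. As levels these were 5.52 to 9.97 CPM in shStau2, 4.57 to 6.49 in shPum2 and 2.80 to 7.79 in shNTC, overlapping throughout. For shNTC replicate 4, with 11 counts, the binomial interval ran from 1.44 to 5.17 CPM before scaling. The differences had the widest intervals of the 5 strands. They were 0.34 (interval -0.24 to 0.92, edgeR adjusted p = 0.721) in shStau2 against shNTC, -0.0013 (-0.58 to 0.57, adjusted p = 0.998) in shPum2 against shNTC and 0.34 (-0.24 to 0.93, adjusted p = 0.672) in shStau2 against shPum2. Single libraries moved these values: shStau2 against shNTC gave 0.13 without shNTC replicate 4, 0.16 without shStau2 replicate 2 and 0.51 without shNTC replicate 2, and shStau2 against shPum2 gave 0.165 without shStau2 replicate 2. A difference of up to 1.89 times between shStau2 and shNTC thus lay within the interval without the block. With the block the interval ran from -0.128 to 0.804 on the log2 scale.

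The spread of the guides was far above counting error, and that of the rare strands was closer to it. The coefficient of variation of miR-124-3p was 6.61% in shStau2, 4.6% in shPum2 and 12.9% in shNTC, where counting alone gives 0.647 to 0.672%. For miR-128-3p it was 5.7, 11.9 and 8.24% in the same groups, where counting gives 0.155 to 0.158%. For miR-128-1-5p the spread was 20.4% in shStau2, 10.2% in shPum2 and 8.24% in shNTC beside 10.6 to 11.4% from counting, and for miR-128-2-5p 28.7, 15.4 and 36.5% beside 17.5 to 19.6%. The spread of each guide was set beside that of miRNAs within 2-fold of its level. The residual SD of log2 CPM of miR-124-3p was 0.13, and 15 of 29 miRNAs within 2-fold of its mean had a lower one (their median 0.126). For miR-128-3p it was 0.129, and the 2 miRNAs within 2-fold had lower values, 0.106 and 0.124.

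In edgeR's test 0 of the 5 strands was called in any of the 3 comparisons, with 0 of 15 tests at an unadjusted p under 0.05. The share called among all 628 miRNAs tested was 0.318% in shStau2 against shNTC, 0% in shPum2 against shNTC and 0.478% in shStau2 against shPum2, so a count of 0 in 5 does not set these strands apart. With the replicate block 0 of the 5 was called in each comparison, beside 6.21, 0.159 and 3.98% of all miRNAs in the same order. There 1 of 15 tests had an unadjusted p under 0.05, that of miR-124-3p in shStau2 against shNTC. Of all miRNAs, 22.5, 7.32 and 19.7% had an unadjusted p under 0.05 with the block, and 11.3, 1.43 and 9.39% without it. DESeq2 called 0 of the 5 as well, with or without the block, although in each setting it gave no adjusted p for miR-128-2-5p in 1 comparison. Of the miRNAs given an adjusted p by DESeq2 without the block, it called 5.56% in shStau2 against shNTC, 0% in shPum2 against shNTC and 1.32% in shStau2 against shPum2. With the block these shares were 7.09, 0.292 and 6.54%. The shNTC libraries served both of their comparisons, and the shStau2 libraries both of theirs, so the values of a strand in different comparisons are not independent. All 15 log2 fold changes were under 0.5 in size.

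**Figure D3:**
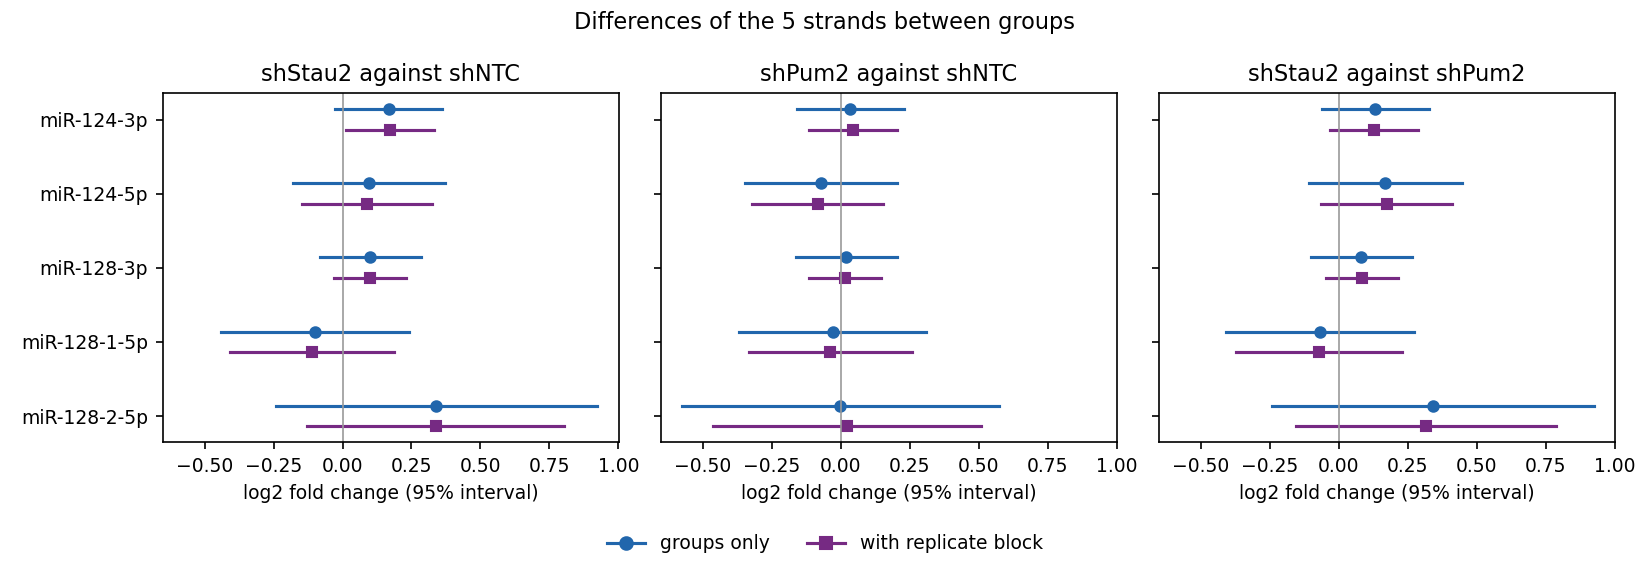
Log2 fold changes of the 5 strands with 95% intervals in the 3 comparisons, from the fit by group (blue circles) and the fit with the replicate block (purple squares). Only the blocked interval of miR-124-3p in shStau2 against shNTC leaves out 0, from 0.012 to 0.33, and its adjusted p is 0.195. In that blocked comparison 22.5% of all miRNAs had an unadjusted p under 0.05.

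Strand choice was compared within a library as a ratio of counts, which needs no scaling between libraries. miR-124-5p amounted to 2.61, 3.71, 3.01 and 2.71% of the miR-124-3p counts in shStau2 replicates 1 to 4, to 2.93, 3.10, 3.21 and 2.38% in shPum2, and to 3.36, 3.24, 3.07 and 2.93% in shNTC. The highest and the lowest share were thus in shStau2 and shPum2, and the shNTC values lay between them. The mean log2 ratio differed by -0.077 in shStau2 against shNTC, -0.12 in shPum2 against shNTC and 0.047 in shStau2 against shPum2 (two-sided exact permutation p = 0.571, 0.343 and 0.771).

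For miR-128 the bias was far stronger. Both 5p strands together amounted to 0.0235, 0.0293, 0.0257 and 0.0264% of the miR-128-3p counts in shStau2 replicates 1 to 4, to 0.0304, 0.0245, 0.0219 and 0.0328% in shPum2, and to 0.0288, 0.0318, 0.0275 and 0.0231% in shNTC. All groups overlapped, and the shPum2 libraries spanned the widest range. The log2 ratio differed by -0.078, -0.029 and -0.049 in shStau2 against shNTC, shPum2 against shNTC and shStau2 against shPum2 (exact permutation p = 0.514, 0.914 and 0.8). For scale, 196 hairpins had both arms named and at least 1000 counts on the larger arm, and their minor arm held a median of 6.25% of both arms' counts. The minor share of miR-124 was 2.93%, with 76 of the 196 lower. The minor share of miR-128, over both loci, was 0.0271%, below the lowest of the 196 at 0.033%. This is a description of the summed counts, with no test.

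The R3hdm1-locus strand outnumbered the Arpp21-locus strand in every library. Capture was not corrected for and exchange of reads was not tested, so this ratio does not measure the output of the loci. There were 1.46, 1.88, 3.41 and 3.52 counts of miR-128-1-5p per count of miR-128-2-5p in shStau2 replicates 1 to 4, against 2.71, 3.21, 3.59 and 3.20 in shPum2 and 2.94, 2.36, 3.34 and 6.18 in shNTC. The highest ratio rests on the 11 counts of miR-128-2-5p in shNTC replicate 4. The mean log2 ratio differed by -0.52 in shStau2 against shNTC, -0.395 in shStau2 against shPum2 and -0.13 in shPum2 against shNTC, none beyond the spread (exact permutation p = 0.286, 0.371 and 0.8). Paired by replicate number, the exact paired permutation p was 0.25, 0.375 and 0.75 in the same order, with 1, 1 and 2 of 4 pairs higher. Against shNTC the difference for shStau2 was -0.25 without shNTC replicate 4 and -0.28 without shStau2 replicate 1, and against shPum2 it was -0.16 without shStau2 replicate 1.

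The proportion of the guides of the 2 families overlapped between all groups. There were 15.5, 19.99, 17.7 and 16.8 counts of miR-128-3p per count of miR-124-3p in shStau2 replicates 1 to 4, against 16.6, 19.5, 18.7 and 17.3 in shPum2 and 17.8, 20.25, 20.1 and 15.5 in shNTC. The mean log2 ratio differed by -0.072 in shStau2 against shNTC, -0.026 in shPum2 against shNTC and -0.045 in shStau2 against shPum2 (exact permutation p of at least 0.457 in each). All 12 ratio tests had adjusted p = 0.904 or 0.914. With 4 libraries against 4 the smallest possible p is 0.0286. These tests did not pair the libraries. Paired by replicate number, the exact paired permutation p was at least 0.25 for every ratio and comparison, where the smallest possible is 0.125.

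Libraries of the same replicate number had like proportions, a pattern noticed in these values and not tested. In number 2 it was 19.5 to 20.2 in the libraries of all groups, above the 15.5 to 17.8 of number 1 and the 15.5 to 17.3 of number 4, with number 3 at 17.7 to 20.1. The numbers pair libraries across the whole miRNA table: deviations from the group means correlated at 0.36 to 0.57 in the 12 same-number pairs, and at -0.41 to 0.14 in the 36 pairs of other numbers and groups. The labels do not say what a number stands for. Tested over all miRNAs, a test chosen after seeing the data, 26.1% of the 628 differed by replicate number (edgeR F test with the block, adjusted p up to 0.05). None of the 5 strands was among them, the nearest being miR-128-3p (adjusted p = 0.0946), which averaged 84410, 94202, 98228 and 88165 CPM in numbers 1 to 4. miR-124-3p, at 5094, 4735, 5231 and 5338 CPM, had adjusted p = 0.385.

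**Figure D4:**
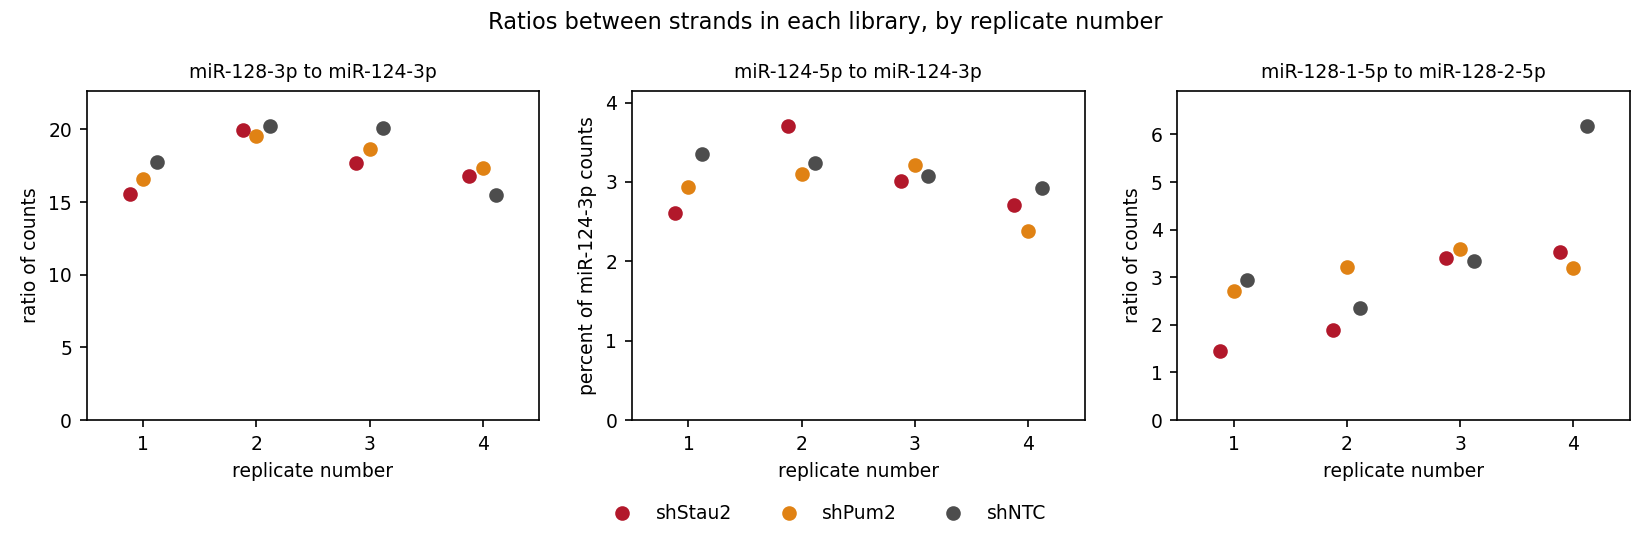
Ratios of counts within each library against the replicate number (linear axes from 0), with red for shStau2, orange for shPum2 and grey for shNTC. The ratio of miR-128-3p to miR-124-3p (left) is 19.5 to 20.2 in number 2 and 15.5 to 17.8 in numbers 1 and 4; the ratio of miR-124-5p to its guide (middle) stays between 2.38 and 3.71%; that of the miR-128 5p strands (right) runs from 1.46 to 6.18.

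Among the 228 other miRNAs with a mean of at least 100 CPM, those whose log2 CPM ran most alike over the 12 libraries were picked by the highest Pearson r, so no test is given. The libraries share their scaling factors and, by number, part of their variation. For miR-124-3p they were miR-672-3p (r = 0.87, Spearman rho 0.83), miR-361-5p (0.75 and 0.76) and miR-125b-5p (0.75 and 0.75). Without the 2 libraries farthest from its median, these r were 0.75, 0.56 and 0.59. For miR-128-3p they were miR-185-5p (r = 0.81, rho 0.84), miR-361-3p (0.77 and 0.75) and miR-129-3p (0.77 and 0.77), and 0.78, 0.76 and 0.71 without the farthest 2. For miR-124-5p, r was 0.79 with miR-154-5p, 0.76 with miR-350 and 0.74 with miR-129-3p, but 0.38, 0.025 and 0.46 without the farthest 2, so these rest on those libraries. miR-124-3p and miR-128-3p themselves had r = 0.46 and rho = 0.61 over the 12 libraries, and miR-124-5p and miR-128-3p 0.67 and 0.62.

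The list of other neuron-enriched miRNAs held 27 strands of miR-7a, miR-9a, miR-129, miR-132, miR-134, miR-137, miR-138, miR-153, miR-212, miR-218a, miR-383 and miR-488, all tested, and summed to 249000 to 294400 CPM in shStau2, 250700 to 303700 in shPum2 and 247400 to 285400 in shNTC. By edgeR without a block 0 of 27 was called higher and 0 lower in each comparison, beside 0.318, 0 and 0.478% of all miRNAs. At an unadjusted p under 0.05 there were 3 of 27 in shStau2 against shNTC, 0 in shPum2 against shNTC and 5 in shStau2 against shPum2, beside 71, 9 and 59 of all 628. The median log2 fold change of the list was -0.011 in shStau2 against shNTC, beside 0.0033 over all 628. It was 0.0028 beside 0.0021 in shPum2 against shNTC and 0.019 beside 0.0053 in shStau2 against shPum2. The most abundant strands of the list were both of miR-9a, which is made in progenitors and neurons. miR-9a-5p averaged 190380 CPM and miR-9a-3p 38140 CPM over the 12 libraries, so most of the list's summed level was miR-9a. In shStau2 against shNTC their log2 fold changes were 0.0077 and -0.025 (edgeR adjusted p = 0.984 and 0.965).

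With the block 1 of the 27 was called, beside 6.21, 0.159 and 3.98% of all miRNAs in the 3 comparisons. It was miR-7a-5p, a miRNA of neurons and neuroendocrine cells, which was higher in shStau2 than in shPum2 (log2 fold change 0.24, adjusted p = 0.0348). It did not pass in shStau2 against shNTC with the block (0.15, adjusted p = 0.154). DESeq2 called 1 of the 27 in shStau2 against shNTC, with and without the block. Of all miRNAs given an adjusted p there, it called 42 of 592 with the block and 24 of 432 without. In shStau2 against shPum2 it called 5 of the 27 with the block, beside 30 of 459, and 1 without, beside 9 of 682. In shPum2 against shNTC it called 0 of the 27 in either fit, beside 2 of 685 and 0 of 682. The strands that DESeq2 called are not named here.

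The miRNAs with the shifted seed were less abundant than miR-128-3p, and 1 of the 3 passed a test, with the block alone. miR-27a-3p, a strand of the miR-23a/27a/24 cluster, stood at 372.6 ± 51.8 CPM in shStau2 and 525.9 ± 5.28 in shNTC (SD, n = 4 each). Its log2 fold change was -0.497 (edgeR adjusted p = 0.191), and it fell by 0.51 with the block (adjusted p = 0.0146). miR-27a-3p was also one of the 4 markers of astrocytes or dividing cells. miR-27b-3p stood at 1384 ± 87.1 CPM in shStau2 and 1453 ± 167 in shNTC (log2 fold change -0.071, adjusted p = 0.891), and miR-216a-3p at 22.0 ± 3.78 and 19.0 ± 3.796 CPM (0.21, adjusted p = 0.765). Summed, the levels of the 3 were far below that of miR-128-3p in every group.

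Of the 4 markers of astrocytes or dividing cells, 0 was called without the block in any comparison. With the block 3 of the 4 fell in shStau2 against shNTC, beside 6.21% of all miRNAs called. They were miR-21-5p, miR-23a-3p and miR-27a-3p, which fell by 0.97, 0.49 and 0.51 on the log2 scale. The remaining marker, miR-24-3p, was not called (-0.142, edgeR adjusted p = 0.195). miR-23a-3p, miR-27a-3p and miR-24-3p belong to the cluster named above, so the 4 markers are not independent. The list was also chosen with earlier results of these data known. In shPum2 against shNTC 1 of the 4 fell, miR-23a-3p, by 0.375 (edgeR adjusted p = 0.0179), beside 0.159% of all. Of 5 microglia or blood markers tested, 1 fell in shStau2 against shNTC with the block, miR-155-5p (-0.54, adjusted p = 0.00119). Against shPum2, where 3.98% of all were called, 2 fell in shStau2, miR-155-5p (-0.61, adjusted p = 0.000697) and miR-142-3p (-0.49, adjusted p = 0.0388). Of 7 vessel or mesenchyme markers 1 fell in shStau2 against shNTC with the block, miR-126a-5p (-0.46, adjusted p = 0.0103). None of the oligodendrocyte markers was called by edgeR in either fit. The part of these markers in the values of miR-124 and miR-128 was not tested.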

How the data were processed

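Per the labels' protocols, RNA was batch-isolated with a miRNeasy kit, had an RNA integrity number of 9.5, and was made into small RNA libraries with unique molecular identifiers. The deposited values are whole-number counts per small RNA name, not normalised, with a table for each library. Whether they are reads or molecules, and the aligner and counter, are not given in the sources used here, so intervals from counts cover counting error only. Per the submitters' processing notes, Rnor 6.0 was used as genome.

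The 12 tables held 805 names. The 685 miRNA names were fitted, and the 120 piRNA names entered an alternative. edgeR 4.0.16 in R 4.3.3 was used with TMM factors, the filterByExpr filter by group (628 names kept, 57 removed, all 5 strands kept), and the robust quasi-likelihood test over all 12 libraries. P-values were two-sided, adjusted by Benjamini-Hochberg over the 628, and called at 0.05. Log2 fold changes are first over second group. Intervals are 95% and use the test's standard error and degrees of freedom. Ratios of counts had 0.5 added to each side and were compared by exact permutation of libraries, adjusted over 12 tests.

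The series design calls the libraries biological replicates. Their numbers were taken to pair libraries because all 12 same-number pairs correlated above 0.1. Alternatives were the replicate block, DESeq2 1.42.0, other scaling, filters and library sets. The strands and lists were chosen with earlier results of these data known. Other miRNAs were named by rule: likeness to a strand, a shared or shifted seed, neighbours in rank, and list members called by edgeR or most abundant. Sequences are from RefSeq (build GRCr8, 3 of the 5 strands matched). Mature sequences of miR-124 are not shown.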

Additional observations from a re-analysis of the deposited data

Results flagged for a closer look

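Of 27 groups of 4 values checked (5 strands and 4 ratios in 3 groups), 2 had a library set apart from the other 3 by nearly the whole range of the group; chance alone gives about 1 in 20. miR-124-3p in shStau2 replicate 2 stood at 4917 CPM and the next lowest shStau2 library at 5628 CPM, the gap being 0.974 of the range. This gap depends on the TMM scaling: as shares of miRNA counts the shStau2 values were 0.563, 0.498, 0.513 and 0.547% in replicates 1 to 4. miR-128-1-5p in shStau2 replicate 1 stood at 12.25 CPM, on 54 counts, and the next lowest at 18.79 CPM, the gap being 0.86 of the range. The 2 were different libraries.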

How the results depend on the processing

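The 5 strands were not called in any comparison under any of 25 alternatives (DESeq2 gave miR-128-2-5p no adjusted p in 2 of them), and the smallest adjusted p was 0.107, for miR-124-3p in shStau2 against shPum2 with the block and without number 2. With the replicate block 0 of 5 was called in each comparison. Of 375 recomputed log2 fold changes of the strands, 343 kept direction and call and 32 turned, all with a main value of at most 0.099 in size. In shPum2 against shNTC miR-128-2-5p turned to 0.023 with the replicate block, 0.0065 with DESeq2 size factors, 0.012 without a filter, 0.014 with DESeq2, 0.068 with DESeq2 and the block, 0.0089 in the 8 libraries alone, and 0.030, 0.18 and 0.19 with the block without number 1, 2 and 3. There miR-128-3p turned to -0.0032 with upper-quartile factors, and with the block to -0.063 without number 2, miR-124-3p to -0.046 without number 2, miR-124-5p to 0.058 without number 4, and miR-128-1-5p to 0.078 without number 3. With the block, miR-124-5p turned to -0.030 without number 2 and miR-128-1-5p to 0.025 without number 1 in shStau2 against shNTC, and miR-128-1-5p to 0.030 without number 1 in shStau2 against shPum2. The causes were not tested.

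Leaving out single libraries gave, in shPum2 against shNTC, -0.028 to 0.11 for miR-124-3p, -0.14 to 0.024 for miR-124-5p, -0.026 to 0.088 for miR-128-3p, -0.095 to 0.027 for miR-128-1-5p and -0.21 to 0.18 for miR-128-2-5p. miR-128-1-5p ran from -0.16 to 0.038 in shStau2 against shNTC and from -0.14 to 0.068 in shStau2 against shPum2. The value of miR-124-3p in shStau2 against shNTC ran from 0.087 (without shNTC replicate 2) to 0.24 (without shNTC replicate 4) over all settings, with adjusted p from 0.195 to 0.728. In the same way miR-128-3p ran from 0.040 to 0.155 in shStau2 against shNTC and from 0.0083 (without shPum2 replicate 1) to 0.12 in shStau2 against shPum2. miR-124-5p ran from -0.030 to 0.17 and from 0.069 to 0.23, and miR-128-2-5p from 0.13 to 0.51 and from 0.14 to 0.496. Of the ratios, 13 of 168 recomputed differences turned and 0 was called. Their leave-one-out ranges were, for shPum2 against shNTC, -0.12 to 0.072 (miR-128 5p strands to 3p), -0.30 to 0.14 (miR-128-1-5p to miR-128-2-5p) and -0.11 to 0.022 (miR-128-3p to miR-124-3p). For shStau2 against shPum2 they were -0.058 to 0.11 (miR-124-5p to 3p), -0.15 to 0.043 (miR-128 5p strands to 3p) and -0.11 to 0.010 (miR-128-3p to miR-124-3p). The exact paired permutation test of 4 differences cannot go below p = 0.125.

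Over all miRNAs the count of calls moved with the block, the tool and single replicate numbers. In shStau2 against shNTC edgeR called 39 with the block and 2 without, DESeq2 42 and 24, and edgeR with the block 5 without number 4. In shStau2 against shPum2 the counts were 25 and 3 for edgeR and 30 and 9 for DESeq2, and 6 to 51 with edgeR's block and a number left out. In shPum2 against shNTC they were 1 and 0 for edgeR and 2 and 0 for DESeq2. Depth limits the miR-128 5p strands, with 11 to 107 counts per library, and not the guides.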
